A study of Mus musculus with 6 samples.

Results

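The LDL receptor family is a group of cell surface receptors that bind and take in lipoproteins, proteases and other ligands. In the deposited table of RNA sequencing values from mouse embryonic fibroblasts, 9 of the 26231 genes were taken as its members by gene symbol: Lrp1, Lrp2, Vldlr, Lrp8, Lrp5, Lrp6, Lrp4, Lrp10 and Lrp12. The family was chosen from the measured difference in RPKM between the lines, which was already known, so its values in that comparison are given below as a description. Members past the threshold of the fit over all genes are only counted there, beside the share of all genes past it, and nothing is drawn from the count. RPKM scales the reads of a gene to its exon length in kilobases and to the depth of the library.

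The study compared 3 libraries of MEF WT (control) with 3 libraries of MEF Nf2 KO to describe RNA levels after loss of Nf2, the gene for the tumor suppressor Merlin. The latter are called KO-labelled libraries here, since their Nf2 RNA was no lower than in control. By the labels, both lines came from FVB mouse embryos of about 14 days, were grown in DMEM with 10% FBS and were then kept for 24 h without serum. The age in the methods of the study is a day less. Both also carried floxed Nf2 alleles, SV40 large T antigen for immortalization and a GFP lentivirus, which encoded Cre recombinase under a CMV promoter in the KO-labelled line and no Cre in the control. Each line was thus a single transduced line. The libraries of both lines bear the marks A, B and 2018 for replicates 1, 2 and 3, and nothing in the labels says that these were separate cultures, so all p-values below measure only the spread between these libraries, which may be technical.

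Members of this family share ligand-binding repeats of the LDL receptor type, a membrane span and, in most, short cytoplasmic motifs that recruit endocytic adaptors. Lrp1 and Lrp2 (megalin) are very large scavenging receptors, Vldlr and Lrp8 (ApoER2) bind apolipoprotein E and the secreted protein Reelin, Lrp5 and Lrp6 are co-receptors of Frizzled in Wnt signaling, and Lrp4 binds agrin at the neuromuscular junction. Lrp1 is well known in fibroblasts, whereas Lrp2 is best known from absorptive epithelia such as the kidney proximal tubule.

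The start sites of Lrp2, the member with the largest difference between the lines, of Lrp1, the most abundant, and of Vldlr, the least abundant, are shown here so that their base composition can be compared. Each run holds the 250 bases before a RefSeq transcript start (GRCm38.p6), written 5′ to 3′ on the strand of the gene, with CpG dinucleotides in capitals. The windows are chr2:69586030-69586279 (minus strand) for Lrp2, chr10:127621149-127621398 (minus strand) for Lrp1 and chr19:27216770-27217019 (plus strand) for the second listed start of Vldlr.
Lrp2: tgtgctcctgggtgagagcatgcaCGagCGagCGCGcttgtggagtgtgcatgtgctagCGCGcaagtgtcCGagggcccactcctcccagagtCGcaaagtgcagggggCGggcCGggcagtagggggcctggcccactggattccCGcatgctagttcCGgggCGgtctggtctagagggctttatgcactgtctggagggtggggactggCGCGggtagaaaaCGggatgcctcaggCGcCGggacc
Lrp1: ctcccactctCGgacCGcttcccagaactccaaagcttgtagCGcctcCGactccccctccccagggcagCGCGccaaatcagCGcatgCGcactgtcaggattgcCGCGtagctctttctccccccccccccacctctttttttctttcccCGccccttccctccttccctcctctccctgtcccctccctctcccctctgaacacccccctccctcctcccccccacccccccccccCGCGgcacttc
Vldlr: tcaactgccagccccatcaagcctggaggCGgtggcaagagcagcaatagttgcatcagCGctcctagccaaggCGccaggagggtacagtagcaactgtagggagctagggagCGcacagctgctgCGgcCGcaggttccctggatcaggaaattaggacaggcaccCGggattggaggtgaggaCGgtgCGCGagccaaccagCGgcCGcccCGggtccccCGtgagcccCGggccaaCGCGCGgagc
The window of Lrp2 held 18 CpG and 66.4% G and C, that of Lrp1 13 CpG and 67.2%, and this window of Vldlr 18 CpG and 66.4%, against medians of 6 CpG and 52.4% over 32851 promoters of the same length. At least as many CpG as in Lrp2 were present in 21.7% of all promoters. The other Vldlr start, at chr19:27216234-27216483, had 5 CpG and 41.6% G and C. RefSeq windows were matched for 5 members (Lrp1, Lrp2, Vldlr, Lrp8 and Lrp10) with 8 starts. The sterol response element CACCCCAC, searched on both strands and found in 2.58% of all promoters, was in none of the 8 windows. The TEAD motif GGAATG, searched likewise and found in 12.6% of promoters, was present only 141 bases before the start at the 3′ end of the 3 listed for Lrp8, whose first bases are in no GENCODE transcript.

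The targeted gene was not lower in the KO-labelled line. Nf2 (chr11:4765845-4849536, minus strand, GRCm38) was at 14.3, 13.7 and 13.1 RPKM in control replicates 1, 2 and 3 and at 15.4, 12.9 and 13.9 RPKM in the KO-labelled libraries. The means were 13.7 ± 0.583 and 14.1 ± 1.27 (SD, n = 3 each). A two-sided exact permutation test gave p = 0.8, and it cannot go below 0.1 with these group sizes. A value summed over the whole gene does not read a deletion of single exons. Depth, worked out from the smallest step of the values, was 13431966 to 19259364 reads in replicates 1 and 2 and 61173700 and 72976492 reads in replicate 3. Of the fibroblast markers, 8 of 10 were at or above the filter, with Vim (vimentin) at 536 to 882 RPKM, whereas no epithelial marker reached 1 RPKM in any library and 6 of 8 macrophage markers stayed under it. The highest markers of macrophages, endothelium, skeletal muscle and epithelium were Cd68 at 5.08 to 8.10, Kdr at 1.32 to 4.39, Acta1 at 0.252 to 6.25 and Krt18 at 0.108 to 0.409 RPKM. Summed fibroblast markers were 1378 to 2063 RPKM in control and 1130 to 1581 RPKM in the KO-labelled libraries, macrophage markers 9.25 to 12.0 and 7.56 to 9.42 RPKM, and neuronal markers, with Map2 the highest at 2.65 to 10.9 RPKM, 6.12 to 10.6 and 10.0 to 13.9 RPKM. For endothelium the sums were 1.46 to 3.89 and 1.52 to 4.46 RPKM, for skeletal muscle 1.02 to 6.67 and 0.866 to 3.11 RPKM, and for epithelium 0.328 to 0.914 and 0.251 to 1.36 RPKM. Between the lines 3 markers were called (limma): Pdgfra fell from 9.75 ± 3.93 to 1.01 ± 0.386 RPKM (adjusted p 0.0329), Dcn fell from 2.73 ± 1.21 to 0.0906 ± 0.0563 RPKM (adjusted p 0.0348), and Map2 rose from 3.55 ± 0.977 to 9.71 ± 1.45 RPKM (adjusted p 0.0399). Dcn met the filter through the control libraries alone. Their part in the differences between the lines was not tested. In bulk RNA, fewer cells of a type and less RNA per cell cannot be told apart.

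Levels within the family spanned several orders of magnitude. Per exon length, Lrp1 was the most abundant member in every library, at 4.35 times the mean of Lrp10, the next member, in control and 4.11 times in the KO-labelled libraries. In control the order then ran Lrp10, Lrp5, Lrp12, Lrp6, Lrp8, Lrp2, Lrp4 and Vldlr. The libraries of Lrp5 and Lrp12, of Lrp6 and Lrp8, and of Lrp8 and Lrp2 overlapped, so that these neighbors were not separated beyond their spread. In the KO-labelled libraries the order was Lrp1, Lrp10, Lrp5, Lrp2, Lrp12, Lrp6, Lrp8, Lrp4 and Vldlr, and the overlapping neighbors were Lrp10 with Lrp5 and Lrp12 with Lrp6. Lrp2 therefore stood in place 7 in control and place 4 in the other line, and the ratio of Lrp1 to Lrp2 went from 18.3 to 4.60.

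**Figure D1:**
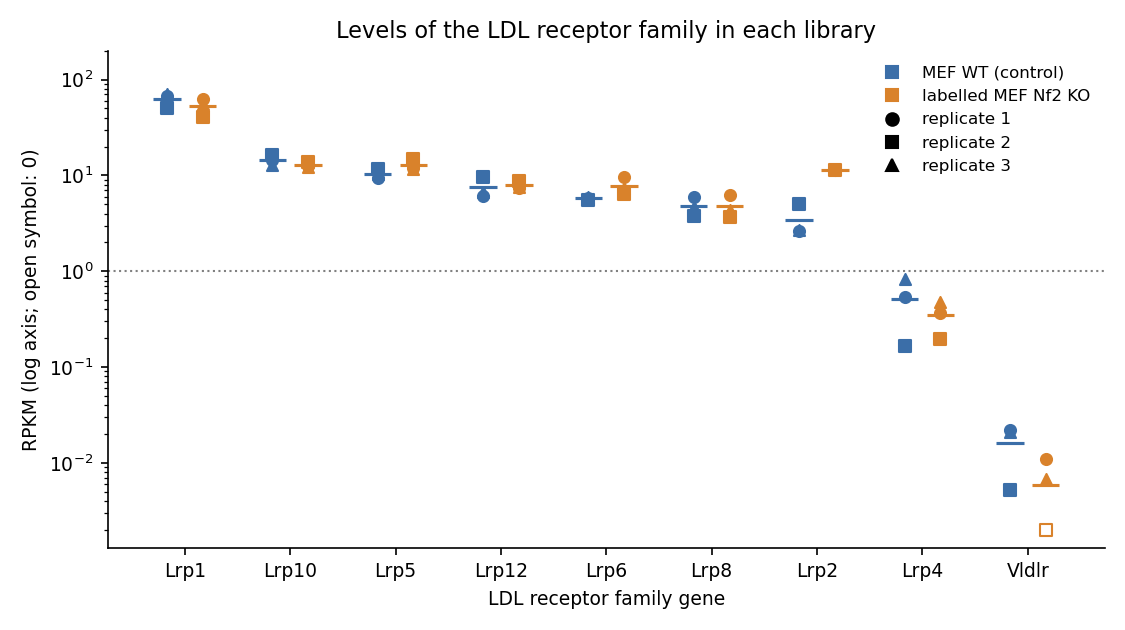
RPKM of the 9 family genes in each library on a log axis, with control in blue and the KO-labelled libraries in orange, shapes for the replicate number, and horizontal bars for the mean of 3 libraries. The dotted line is the filter of 1 RPKM and the open symbol is a value of 0. The 3 orange points of Lrp2, near 11.5 RPKM, lie above all its blue points, while Lrp4 and Vldlr are under the filter in both lines.

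Of the scavenging receptors, Lrp2 was higher in all KO-labelled libraries than in any control library, whereas the lines overlapped for Lrp1. Lrp2 (chr2:69424340-69586065, minus strand) was at 2.61, 5.08 and 2.68 RPKM in control replicates 1, 2 and 3 and at 11.5, 11.3 and 11.6 RPKM in the KO-labelled libraries. The groups did not overlap, and control replicate 2 was the highest of its group, well above the other control libraries, while the KO-labelled libraries were almost level. These values rest on 586, 1605 and 2738 reads in control and on 3458, 3650 and 14108 reads in the KO-labelled line. The means were 3.46 ± 1.41 and 11.5 ± 0.115 RPKM (SD, n = 3), a ratio of 3.32. The log2 fold change on log2(RPKM + 1) was 1.53 (SE 0.21), with 1.79, 1.02 and 1.77 in the pairs of replicates 1, 2 and 3. The same ratio within pairs was 4.39, 2.23 and 4.32, so the pair of replicate 2 had the smallest difference. Its control library was the highest of the control group, and its KO-labelled library was higher still. With both replicate 2 libraries left out the difference was 1.78, and with control replicate 1 left out it was 1.40. A fold change of at least this size in either direction was found for 63 of 11067 genes tested (0.569%).

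Lrp1 (chr10:127538161-127621148, minus strand), the clearance receptor for protease-inhibitor complexes and apolipoprotein E, was at 67.7, 50.6 and 71.3 RPKM in control and at 62.3, 40.9 and 55.0 RPKM in the KO-labelled libraries. The groups overlapped, and replicate 2 was the lowest library of each line. The means were 63.2 ± 11.0 and 52.7 ± 10.9 RPKM (SD, n = 3), with a log2 fold change of −0.26 (SE 0.20). In all 3 pairs the KO-labelled library was the lower, by log2 differences of −0.12, −0.30 and −0.37.

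The Reelin and apolipoprotein E receptors did not separate the lines. Lrp8 (chr4:107802261-107876840, plus strand) was at 5.92, 3.80 and 4.67 RPKM in control and at 6.21, 3.71 and 4.41 RPKM in the KO-labelled libraries. The groups covered almost the same range, and the libraries sorted by replicate number in place of line. Its means were 4.80 ± 1.07 and 4.78 ± 1.29 RPKM (SD, n = 3), a log2 fold change of −0.012 (SE 0.20), with pairs at 0.059, −0.025 and −0.069. The sign of so small a value depended on the setting, being the same in 12 of 17 alternatives. Vldlr (chr19:27216484-27254231, plus strand), the close relative of Lrp8, was nearly absent. It was at 0.0221, 0.00524 and 0.0211 RPKM in control and at 0.0110, 0 and 0.00679 RPKM in the KO-labelled libraries. These values stand for 3, 1 and 13 reads and for 2, 0 and 5 reads. A limit of 3 reads corresponds to 0.00408 to 0.0222 RPKM depending on depth and covers counting error only. The 2 libraries of replicate 3, the deepest, were above this limit with 13 and 5 reads, and the other 4 were at or under it. Over the 3 libraries of each line there were 17 reads in control and 7 in the KO-labelled line, too few for a fold change to be given. Reln, the gene of their ligand Reelin, was listed at 0 in 5 libraries and had 1 read in the remaining library.

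Both Wnt co-receptors had slightly higher means in the KO-labelled libraries. Lrp6 (chr6:134446476-134566965, minus strand) was at 5.86, 5.50 and 6.01 RPKM in control and at 9.53, 6.34 and 7.37 RPKM in the KO-labelled libraries. No values overlapped between the lines, and replicate 1 of the KO-labelled line was the highest. The means were 5.79 ± 0.262 and 7.75 ± 1.63 RPKM (SD, n = 3), with a log2 fold change of 0.35 (SE 0.14) and pairs at 0.62, 0.18 and 0.26. Lrp5 (chr19:3584828-3686564, minus strand) was at 9.43, 11.6 and 10.3 RPKM in control and at 11.9, 14.8 and 11.6 RPKM in the KO-labelled libraries. The lines were separated only narrowly, since control replicate 2 came close to replicate 3 of the KO-labelled line. Its means were 10.4 ± 1.07 and 12.8 ± 1.79 RPKM (SD, n = 3), with a log2 fold change of 0.27 (SE 0.13) and pairs at 0.31, 0.33 and 0.16. Of the 31-base stretches of their transcripts, 1.44% for Lrp5 and 1.04% for Lrp6 were also found in other genes, and the share was lower for every other member. Lrp4 (chr2:91457511-91513779, plus strand), the agrin receptor, was at 0.537, 0.166 and 0.825 RPKM in control and at 0.363, 0.197 and 0.481 RPKM in the KO-labelled libraries. The groups overlapped, replicate 2 was the lowest of each line, and no library reached 1 RPKM. Its replicate 2 values rest on 33 and 40 reads, against 368 to 530 reads in replicate 3.

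The more distant members were close to level. Lrp10 (chr14:54464137-54471497, plus strand), a receptor that shuttles between the Golgi and endosomes, was at 14.4, 16.4 and 12.8 RPKM in control and at 12.6, 13.7 and 12.2 RPKM in the KO-labelled libraries. The groups overlapped, although the log2 difference was negative in each pair (−0.19, −0.24 and −0.057). The means were 14.5 ± 1.81 and 12.8 ± 0.770 RPKM (SD, n = 3), with a log2 fold change of −0.16 (SE 0.11). Of its exon bases, 10.64% overlap Gm10366 on the opposite strand, and whether the counting used strand is not given in the sources used here. Lrp12 (chr15:39870589-39943994, minus strand) was at 6.15, 9.68 and 6.74 RPKM in control and at 7.36, 8.70 and 7.54 RPKM in the KO-labelled libraries. Here replicate 2 was the highest library in both lines and the pairs differed in sign. Its means were 7.52 ± 1.89 and 7.87 ± 0.727 RPKM (SD, n = 3). The log2 fold change of 0.076 (SE 0.16) changed sign in 1 of 18 alternatives.

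Of the 9 members, 7 were at or above the filter of 1 RPKM in at least 3 libraries, and Vldlr and Lrp4 were under it. The log2 fold change was above 0 for 4 and below 0 for 3 of these 7. As a count without inference, 1 of the 7, Lrp2, was among the 1.06% of all genes tested with an adjusted p under 0.05 (limma, Benjamini-Hochberg over all genes tested). With the replicate number as a block the count of members was again 1, Lrp2, against 7.53% of all genes. The lines did not overlap in 3 of the 7 (Lrp2, Lrp5 and Lrp6), against 15.1% of all genes tested. These counts reuse the values with which the family was chosen and are no test of it. The median log2 fold change was 0.0764 for the 7 and −0.00782 for all genes tested, and the median size irrespective of sign was 0.263 and 0.105. In the fit without the block, Lrp2 was no longer among the genes past the threshold without control replicate 1 or 3, without any single KO-labelled library, or without both libraries of replicate 1 or of replicate 3. When each replicate number was left out of the blocked fit, it was lost only without replicate 1.

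**Figure D2:**
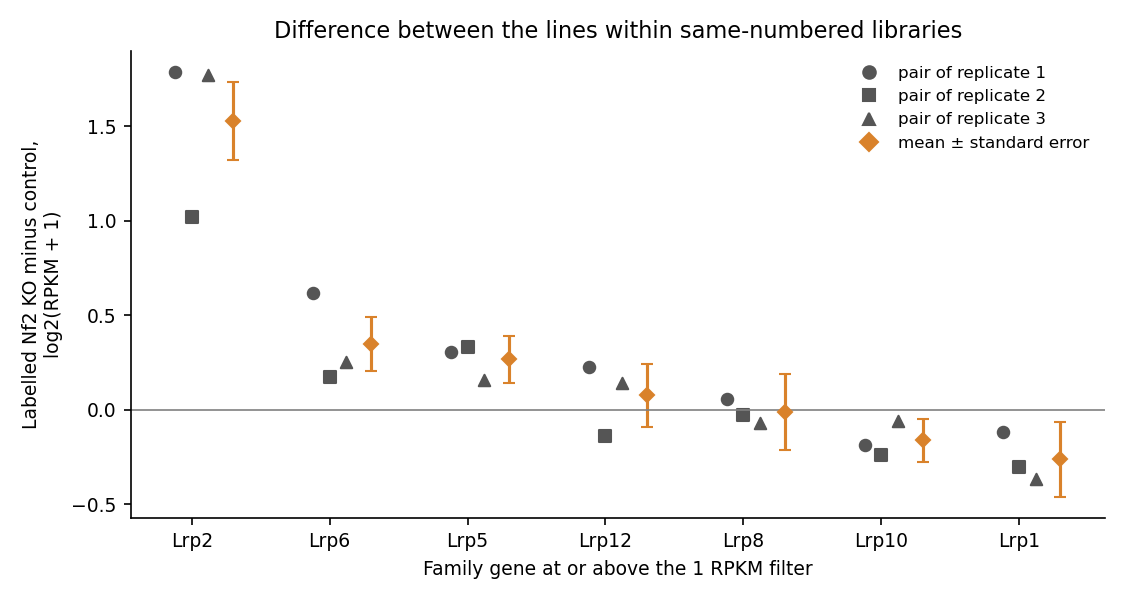
Difference between the lines, in log2(RPKM + 1), for the 7 family genes at or above the filter. Gray points are the pairs of same-numbered libraries and orange diamonds the mean with its standard error. All 3 pairs of Lrp2 lie above 1, with replicate 2 lowest at 1.02, whereas no pair of another gene exceeds 0.62.

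Lrp1 and Lrp8 differed between the replicate numbers. This contrast is not the one between the lines, but replicate differences in these data were also known when the family was chosen. In limma's F test for the replicate number with the line in the model, Lrp1 had an adjusted p of 0.0307 and Lrp8 one of 0.0198, that is 2 of the 7 members, while 21.2% of all genes tested were called. For Lrp1 the means of replicates 1, 2 and 3 over both lines were 65.0, 45.8 and 63.2 RPKM. For Lrp8 they were 6.07, 3.76 and 4.54 RPKM. Replicate 2 was thus lower in both genes and in both lines, with log2 differences from the mean of replicates 1 and 3 of −0.48 for Lrp1 and −0.40 for Lrp8. The adjusted p of the other members was 0.0782 for Lrp12, 0.0884 for Lrp5, 0.148 for Lrp10, 0.231 for Lrp6 and 0.318 for Lrp2. Both replicate 2 libraries lay outside the other 4 in 3 of the 7 members (Lrp1 and Lrp8 lower, Lrp12 higher), against 46.6% of all genes tested. The share of members called was therefore not far from that of the genes at large. Neither Lrp1 nor Lrp8 was called once the replicate 2 library of either line was left out, where the adjusted p reached 0.216 for Lrp1 and 0.108 for Lrp8. Without replicate 1 of the KO-labelled line Lrp8 had an adjusted p of 0.0652 (limma).

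The replicate 2 difference was larger than the line difference in 4 of the 7 members. The share among all genes tested was not counted. Their median sizes irrespective of sign were 0.2 for the replicate 2 difference and 0.105 for the line difference, against 0.359 and 0.263 in the 7. Among these 7, Lrp2 was the member in which replicate 2 differed most between the lines. It was 1.92 times the mean of replicates 1 and 3 in control and 0.985 times in the KO-labelled libraries. The first principal component of all genes tested, with 50.3% of the variance, set replicate 2 of both lines apart, and the second, with 32.7%, set the lines apart. What distinguished replicate 2 was not tested.

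Of the 14 genes tested for cholesterol uptake, efflux and sensing, 6 were called by the F test, beside 21.2% of all genes tested, and all 6 fell in replicate 2, with a median log2 difference over the 14 of −0.490. Insig1, which retains the sterol sensor complex in the endoplasmic reticulum, had means of 68.1, 17.5 and 62.7 RPKM in replicates 1, 2 and 3 (adjusted p 0.00464, limma). Srebf2, the transcription factor of cholesterol synthesis, had means of 51.1, 26.2 and 42.3 RPKM (adjusted p 0.00862), and this call was lost without replicate 2 of either line, at adjusted p-values of 0.0691 and 0.0769. Insig1 stayed called without any single library, at adjusted p-values of up to 0.0294. Insig1, Srebf2, the other sterol genes plotted (Srebf1 and Npc1) and the ligand Ctgf were picked after their values were seen.

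**Figure D3:**
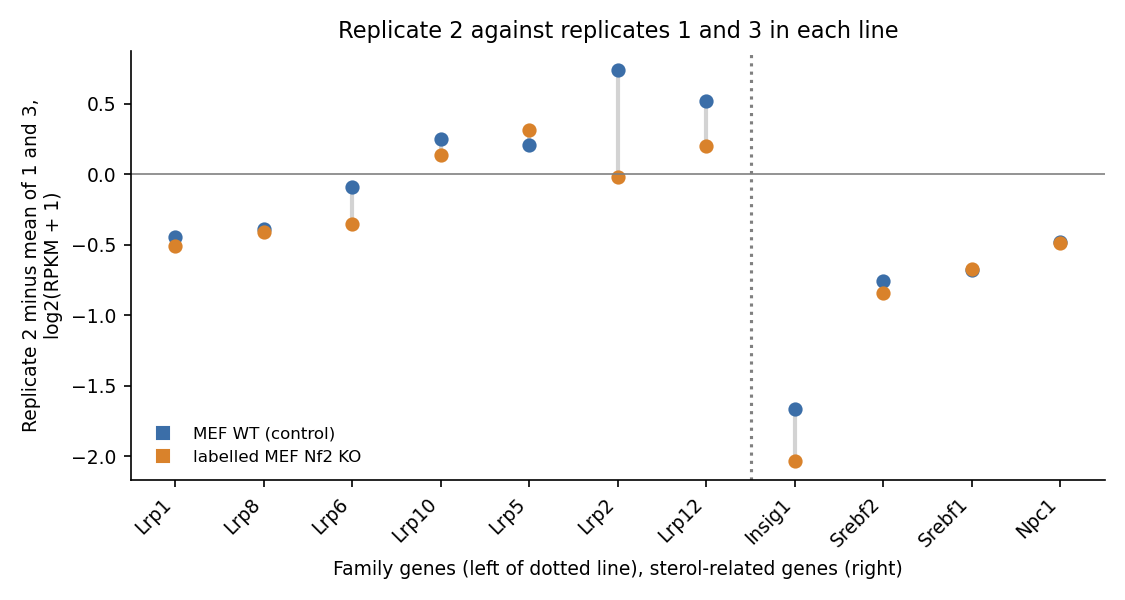
Difference of replicate 2 from the mean of replicates 1 and 3, in log2(RPKM + 1), for each line. The 7 family genes stand left of the dotted line, and 4 sterol-related genes stand right of it. Lrp1 and Lrp8 are below 0 by similar amounts in both lines, Lrp2 is above 0 in control only (0.74), and the genes on the right are below 0 in both lines.

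Of the 18 ligands tested, 7 were called by replicate number, 2 higher and 5 lower in replicate 2. Ctgf, a matricellular protein that binds Lrp1, had means of 61.8, 706.3 and 107 RPKM in replicates 1, 2 and 3 (adjusted p 0.00611, limma F test). It was 1 of the 2 that were higher, and it stayed called without any single library, at adjusted p-values of up to 0.0271. Over all lists, 25 of 77 genes tested (32.47%) were called by replicate number, beside 21.2% of all genes tested, 6 higher and 19 lower in replicate 2.

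Between the lines, the genes that work with the family were mostly not called. The lists hold 112 genes, written by hand from general knowledge, of which 107 are in the table and 77 were tested. Of these, 3 passed without the block (1 higher, 2 lower in the KO-labelled libraries) and 13 with it (6 higher, 7 lower, 16.88%), beside the 1.06% and 7.53% of all genes given above. The median log2 fold change over the 77 was −0.053. When each replicate number was left out of the blocked fit, an alternative chosen after seeing the data, 5 to 8 of these 13 genes were still called. Lpl, Dkk2, Gulp1, Thbs2 and Wnt5a were called in all 3 of these fits, and Dab2, Fyn, Kremen1 and Nr1h2 in none of them.

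Among ligands, 2 of 18 tested genes passed without the block. Lpl, the lipoprotein lipase that also bridges lipoproteins to these receptors, rose from 0.636 ± 0.0282 to 2.01 ± 0.149 RPKM (SD, n = 3), a log2 fold change of 0.88 (SE 0.10, adjusted p 0.0222, limma). Fn1 (fibronectin), an abundant matrix protein, fell from 475 ± 17.9 to 306 ± 9.43 RPKM, a log2 fold change of −0.63 (SE 0.091, adjusted p 0.0390). In both genes the lines did not overlap, and 3 of 3 pairs had the same sign. Lpl met the filter of 1 RPKM only through the KO-labelled libraries, so that its presence among the genes tested already favors a difference. The Fn1 call was lost in each of the 6 fits that left out a single library, with adjusted p-values of 0.0709 to 0.175, and the Lpl call in 4 of these 6. The thrombospondins, matrix proteins taken up through Lrp1, passed only with the block and in opposite directions. Thbs1 rose from 271 to 761 RPKM (log2 fold change 1.69, adjusted p 0.0335 with the block and 0.206 without, limma). Thbs2 fell from 10.3 to 3.56 RPKM (log2 fold change −1.28, adjusted p 0.00570 with the block and 0.114 without). Apoe was low, at 0.924 ± 0.388 and 1.04 ± 0.150 RPKM, with an adjusted p of 0.968.

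Of the Wnt and agrin partners, 1 of 10 tested genes passed without the block and 5 with it. Dkk2, a secreted antagonist that binds Lrp5 and Lrp6, was at 5.71, 8.07 and 7.37 RPKM in control and at 0.746, 0.560 and 1.65 RPKM in the KO-labelled libraries. All control libraries were above all libraries of the KO-labelled line. The means were 7.05 ± 1.21 and 0.986 ± 0.584 RPKM (SD, n = 3), a log2 fold change of −2.05 (SE 0.22, adjusted p 0.0217, limma). The call was kept in 3 of the 6 fits that left out a single library. Dkk2 met the filter of 1 RPKM through the control libraries, since the KO-labelled libraries alone would not have passed it. Its presence among the genes tested thus already favors a difference. With the block, Kremen1, which binds Dickkopf proteins together with Lrp6, fell from 5.13 to 3.93 RPKM (adjusted p 0.0426, limma), and Apcdd1, a membrane inhibitor of Wnt signaling, fell from 7.00 to 3.95 RPKM (adjusted p 0.0498). In the same fit Wnt5a, a Wnt ligand, rose from 4.80 to 10.2 RPKM (adjusted p 0.00512), and Rspo3, a secreted enhancer of Wnt signaling, from 0.833 to 1.97 RPKM (adjusted p 0.0354). Without the block the adjusted p of these 4 genes was 0.577, 0.147, 0.247 and 0.276. Rspo3 met the filter through the KO-labelled libraries, since the control libraries alone would not have passed it. Its presence among the genes tested likewise favors a difference.

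Chaperones and adaptors of the family gave no call without the block in 19 genes tested, of which 4 had an unadjusted p under 0.05 (limma). Lrpap1 (RAP), the chaperone that keeps ligands off Lrp1 and Lrp2 in the endoplasmic reticulum, was at 11.3 ± 1.14 and 10.4 ± 0.180 RPKM (adjusted p 0.892, limma). Mesd, the chaperone of Lrp5 and Lrp6, was at 12.6 ± 1.25 and 11.7 ± 0.603 RPKM (adjusted p 0.924). With the block, 2 endocytic adaptors passed. Dab2, which binds the cytoplasmic tail of Lrp2 and other members, rose from 15.0 to 23.7 RPKM (log2 fold change 0.61, adjusted p 0.0303 with the block and 0.263 without, limma), and Gulp1, an adaptor of Lrp1 in engulfment, from 7.17 to 17.3 RPKM (log2 fold change 1.16, adjusted p 0.00191 and 0.225). In neither gene did the lines overlap. Of the 13 Reelin signaling genes tested, none passed without the block (3 at an unadjusted p under 0.05, limma) and Fyn, the kinase that phosphorylates Dab1, fell with it, from 17.1 to 12.1 RPKM (adjusted p 0.0474 with the block and 0.268 without, limma). Of the 14 cholesterol genes, none passed without the block (1 at an unadjusted p under 0.05, limma). Nr1h2, a nuclear receptor for oxysterols, was the 1 call with the block, falling from 10.2 to 8.05 RPKM (adjusted p 0.0452 and 0.668). Of the other receptors with LDL receptor repeats, 3 of 7 were tested and none was called with or without the block (0 at an unadjusted p under 0.05 without it, limma).

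The pattern of Lrp2 over the 6 libraries was most like those of Gpc4, Chst15, Bag2, Tlk2 and Prr5l, with Pearson correlations on log2(RPKM + 1) of 0.996, 0.990, 0.990, 0.990 and 0.989. These points share the line and the replicate number and are a description. Gpc4, a glypican, had means of 36.5 ± 7.75 and 89.0 ± 4.57 RPKM, with control replicate 2 again the highest of its group at 45.5 RPKM. Bag2 and Tlk2 had much smaller log2 fold changes, of 0.18 and 0.19, against 1.28 for Gpc4.

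The genes around Lrp2 on chromosome 2 did not share its difference. Within 500000 bp of its start, 19 genes are in the table and 9 were tested. Their log2 fold changes ran from −0.13 to 0.44 with a median of 0.021, and none had an adjusted p under 0.05 (limma), while 2 had an unadjusted p under it. With the block 1 was called: Spc25, a kinetochore gene whose start lies 379871 bp downstream of that of Lrp2, rose from 11.7 to 16.4 RPKM (adjusted p 0.0325 with the block and 0.178 without, and up to 0.128 in the blocked fit without a replicate number). The nearest tested gene, Bbs5, with its start at −61106 bp, was at 3.19 ± 0.663 and 3.09 ± 0.307 RPKM. Dhrs9, a dehydrogenase gene whose start lies 205620 bp downstream, was under the filter and was picked after its values were seen. It was at 0.590, 1.68 and 0.477 RPKM in control and at 0.0258, 0.133 and 0.0224 RPKM in the KO-labelled libraries. Replicate 2 was the highest library in both lines, and the lines did not overlap. Its counts in the KO-labelled line were 2, 11 and 7 reads.

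**Figure D4:**
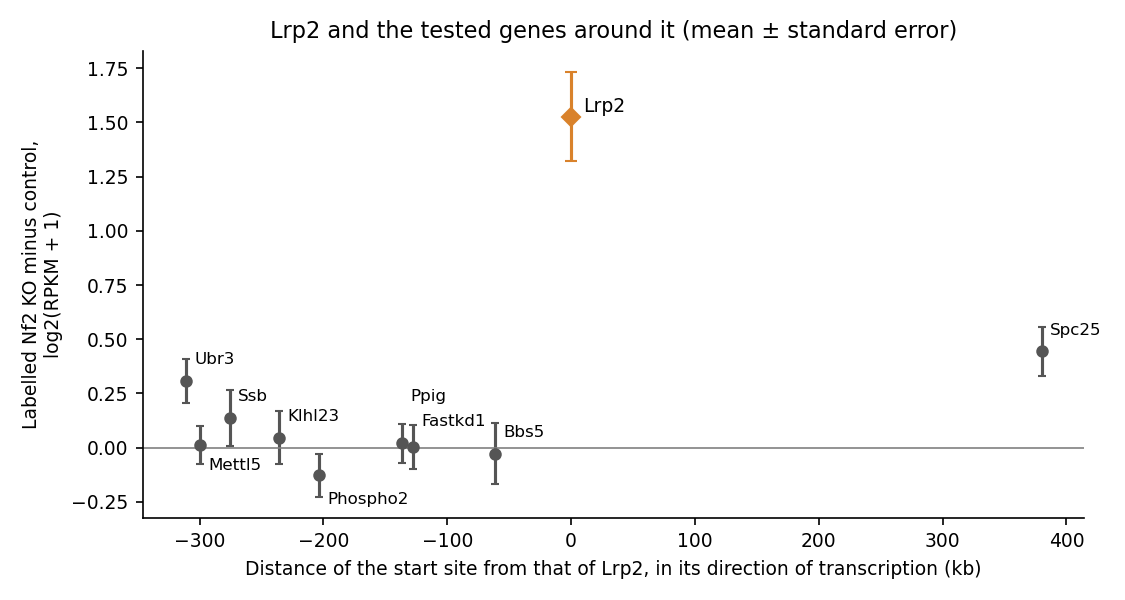
Difference between the lines in log2(RPKM + 1), with its standard error, for Lrp2 (orange) and the 9 tested genes around it (gray), by the distance of their start sites from that of Lrp2 in kilobases, with positive values in its direction of transcription. Lrp2 is at 1.53, and the others lie between −0.13 and 0.44.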

How the data were processed

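RNA was extracted with the RNeasy kit, and GENEWIZ made the libraries, sequenced them and processed the reads. The table the authors deposited holds values for 6 libraries that are taken here as RPKM, an inference: after multiplication by exon length (GENCODE vM21, GRCm38, found for 25986 of 26231 genes), 86.2% to 87.6% of values of up to 20 reads lay within 0.1 read of a whole multiple of a single step, against 20% if spread evenly. That step gave the depths, and whether it stands for a read or a pair is unknown. Per the labels, the submitters' processing notes name mm10, and the aligner and counter are not given in the sources used here. All 6 value columns were used (0 left out). The members and all lists were chosen with earlier results of these data known.

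Values were set to log2(RPKM + 1), so fold changes of low genes are understated. A gene was tested if 3 or more libraries had 1 RPKM or more, which held for 11067 genes. Two-sided tests came from limma 3.58.1 (R 4.3.3), using lmFit and a robust eBayes with a mean-variance trend. P-values were adjusted by Benjamini-Hochberg over all genes tested, with 0.05 as threshold. The model for the lines had no covariate, and that for the replicate F test also held the line. Once line means were subtracted, libraries with the same number correlated at 0.552, 0.819 and 0.516 for replicates 1, 2 and 3. Correlations between unlike numbers were not computed. Since replicate 2 stood apart in both lines, the values for replicates 1 and 3 cannot show that these numbers pair. Pairing by number was thus assumed, and a fit blocked on the numbers is given where it changes a call. Libraries of a line differed by 2.67 to 5.85 times the sampling noise, so none was counted as the same library deposited again, though this cannot tell repeat libraries of the same RNA from separate cultures. The fits were tested on simulated data, where the share of false calls was above the threshold for the blocked fit, close to it for the replicate F test and well under it for the fit of the lines without the block. Named genes are the members, Nf2, Lrpap1, Mesd, Apoe and Reln, list genes called with or without the block (otherwise the highest of the list by mean), the highest marker of a cell type, and the 5 genes most correlated with Lrp2. Others are named as chosen after their values were seen, and some listed genes are not reported here. Listed genes not in the table used here, Dab1 among them, were not analysed. Alternatives were other moderation, scaling, pseudocount, filters, thresholds and covariates, voom on recovered reads, and leaving out libraries. Figures were drawn with matplotlib 3.10.9.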

Additional observations from a re-analysis of the deposited data

How the results depend on the processing

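Between the lines, 117 genes, 1 member and 3 pathway genes were called. Without a filter these were 9, 0 and 0 (1 member and 26 pathway genes at an unadjusted p under 0.05, limma), with the 2018 mark as a covariate 62, 0 and 1, and at a threshold of 0.01 they were 9, 0 and 0. A filter of 5 RPKM gave 63 genes and 1 member. The fit with the replicate block gave 833 genes, 1 member and 13 pathway genes. Leaving out 1 library or 1 replicate number gave 0 to 484 genes, 0 to 1 members and 0 to 11 pathway genes, the highest without replicate 2 and 0 genes without replicate 1 or replicate 3. Between the replicate numbers, 2347 genes and 2 members were called. Without a filter these were 0 and 0 (5077 genes and 4 members at an unadjusted p under 0.05, limma), at a threshold of 0.01 they were 258 and 0, and a filter of 5 RPKM left 1 member, Lrp1, since Lrp8 was not tested there. Leaving out libraries or numbers gave 0 to 2700 genes and 0 to 2 members, with 0 genes without replicate 2. The cause of these shifts was not tested. Plain variance moderation, centring on the median, quantile scaling, voom on recovered reads and a pseudocount of 0.1 left every one of these counts within 1.5 times.

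The log2 fold change of Lrp2 ran from 1.40 to 1.81 over 18 alternatives. Lrp1 ran from −0.412 to −0.0937, Lrp10 from −0.245 to −0.0772, Lrp5 from 0.162 to 0.337 and Lrp6 from 0.208 to 0.468, each with its sign kept. Lrp8 ran from −0.183 to 0.124 and Lrp12 from −0.039 to 0.25. Without a filter Lrp4 had −0.146 and Vldlr −0.0146, values that the added 1 RPKM holds near 0. Depth limits Vldlr, with 17 reads in control and 7 in the KO-labelled libraries, and Lrp4 in replicates 1 and 2.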
